A study of Mus musculus with 7 samples.

Results

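The insulin-like growth factor (IGF) system was examined through the 10 genes that encode its ligands, receptors and binding proteins: the 2 ligands Igf1 and Igf2, the 2 receptors Igf1r and Igf2r, and the 6 binding proteins Igfbp1 to Igfbp6. They were taken by name from the 18193 genes that the array measured, and 26 probe sets carried one of these names alone. A further probe set was shared between Airn and Igf2r, had log2 levels of 5.47 to 6.19 over the arrays, and was not assigned to Igf2r.

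Expression was measured on 7 Affymetrix whole-genome mouse arrays, all labelled C57BL/6 (the methods give C57BL/6J for the fibroblasts and hepatocytes). Induced hepatic stem cells (iHepSC) are fibroblasts converted with lentiviral Oct4 and Hnf4α, which stay integrated in the cells, grown as picked colonies in hepatocyte medium that held dexamethasone, HGF and EGF; 1 array was run at passage 20 (P20) and 1 at passage 3 (P3), and the labels do not say which clone they came from, although the detailed work used iHepSC-C3. Primary hepatocytes (pHep, 1 array) were isolated from 6-week-old male mice by collagenase perfusion and plated briefly before RNA was taken. Mouse embryonic fibroblasts (MEF, 4 arrays), the cells of origin, were grown from embryos without head and organs in a serum medium without those additions. Medium and cell type therefore cannot be told apart in any comparison with MEF. For pHep against MEF, age (6 weeks against embryos) and time in culture cannot be told apart from them either. Medium, time in culture and age of the source also differ between iHepSC and pHep, and cannot be told apart from cell type there. The arrays are numbered replicates that are not said to be separate cultures, so the p-values speak only of how far these arrays scatter, possibly for technical reasons, and the single pHep array has no spread of its own.

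In mammals both IGF ligands act through the receptor tyrosine kinase IGF1R, whereas IGF2R, also known as the cation-independent mannose 6-phosphate receptor, carries IGF2 to the lysosome. The 6 binding proteins hold the ligands in the circulation or near the cell surface, and proteases such as pappalysin release them. The adult liver is the main source of circulating IGF1, under growth hormone, while IGF2 is the growth factor of the fetus and is switched down in rodent liver after birth.

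Values are log2 expression levels as deposited, and a difference of 1 on that scale is a doubling. A difference was called at an adjusted p under 0.05 in limma, with each gene read from its probe set of highest mean level and p-values adjusted over all 18193 genes. Levels were compared between arrays for the same probe set, never between genes.

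One MEF array stood apart. MEF replicate 1 correlated with the other MEF arrays at 0.960 to 0.961, against 0.997 among replicates 2 to 4 and 0.996 between the 2 iHepSC arrays. All 9 measured cell division genes were lower on MEF replicate 1, with a mean log2 level of 8.36 against 11.15 to 11.29 on the other 3 MEF arrays, and 5 of 6 cell cycle inhibitors were higher. With all arrays limma called none of the 9 cell division genes in iHepSC or pHep against MEF (0 and 3 at an unadjusted p under 0.05), and without MEF replicate 1 all 9 were lower in both, while 1 inhibitor was higher and 1 lower in each with all arrays. The part of this difference in the results below was not tested, and the 10 genes and the pathway lists are given with and without the array, along with single pathway genes where a call changed. The identity of the groups was checked against marker genes: 9 of 12 hepatocyte markers were higher and 11 of 11 fibroblast markers were lower in iHepSC than in MEF, and in pHep 11 of 12 and 10 of 11 did so. Cyp2e1, a defining enzyme of mature hepatocytes, stood at only 5.11 in pHep, against 5.22 to 5.52 in MEF. Of 10 hepatic stellate cell markers 1 was higher and 4 were lower in iHepSC and likewise in pHep. Of 10 liver endothelial cell markers 3 were higher in iHepSC and 1 was lower in pHep. Of 6 cholangiocyte markers 3 were higher and 1 lower in iHepSC and 2 were higher and 2 lower in pHep. Over all genes 18.2% were higher and 13.4% lower in iHepSC, and 14.8% and 15.5% in pHep, so several of these counts lie near the shares of all genes. Without MEF replicate 1, 24.8% of all genes were lower in iHepSC and 31.6% in pHep.

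In iHepSC, 6 of the 10 genes fell below their MEF level and none rose in limma. At an unadjusted p under 0.05 the number that rose was 0 as well, in limma and in the unpaired test named in the methods. The 6 were both ligands, Igf1 and Igf2, the signalling receptor Igf1r, and the binding proteins Igfbp2, Igfbp4 and Igfbp6. Over all genes 13.4% were lower and 18.2% were higher in this comparison, and the median log2 difference was -1.48 over the 10 genes and 0.01 over all genes. Centring each array on Gapdh instead moved the median of all genes by 0.49 and the share of higher genes among those called to 81.2%, against 57.5% as deposited. The same 6 genes were those whose iHepSC and MEF levels did not overlap. The share of all genes without overlap was not computed, so this adds no support to the calls. When MEF replicate 1 was left out, the 6 falls remained and Igf2r and Igfbp1 were called higher, against 24.8% of all genes lower and 31% higher. In pHep, Igfbp1 and Igfbp4 rose and Igf2 and Igf1r fell against MEF, where 14.8% of all genes were higher and 15.5% lower. With MEF replicate 1 left out, Igf2r and Igfbp3 were also called higher and Igfbp2, Igfbp5 and Igfbp6 also lower, which made 4 genes higher and 5 lower, against 27% and 31.6% of all genes. The median difference with all arrays was -0.27 over the 10 genes and -0.13 over all genes. Both comparisons use the same 4 MEF arrays.

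**Figure D1:**
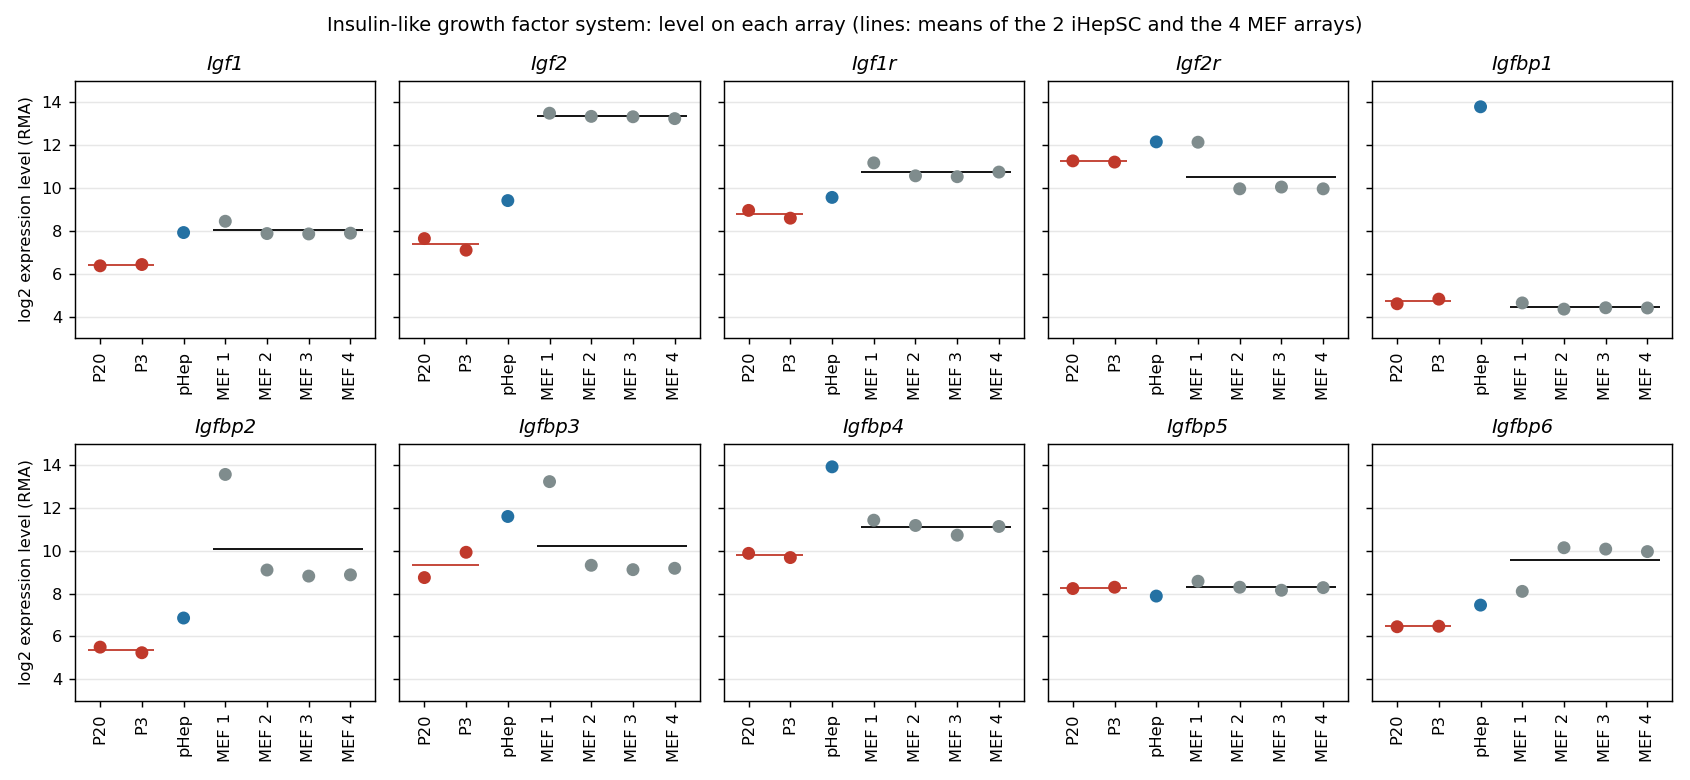
Log2 expression level (vertical axis) of the 10 IGF system genes on each array (horizontal axis): iHepSC at P20 and P3 in red, pHep in blue and MEF replicates 1 to 4 in grey, with horizontal lines at the iHepSC and MEF means. Igf2 lay at 7.10 to 7.64 in iHepSC and at 13.25 to 13.50 in MEF, Igfbp1 was at 13.80 on the pHep array alone, and MEF replicate 1 stood far from the other MEF arrays for Igfbp2, Igfbp3, Igf2r and Igfbp6.

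Igf2, the fetal growth factor, showed the largest fall of the 10 genes in iHepSC. Its level was 7.64 at P20 and 7.10 at P3 in iHepSC and 9.42 in pHep, against 13.50, 13.35, 13.33 and 13.25 in MEF replicates 1 to 4. The levels of the 3 groups did not overlap, and the order from high to low was MEF, pHep, iHepSC. The log2 difference was -5.98 ± 0.17 (SE; adjusted p = 3.57e-06, limma) in iHepSC against MEF, a 63.2-fold lower level, and -3.94 ± 0.22 (SE; adjusted p = 7.39e-05, limma) in pHep against MEF, a 15.3-fold lower level. iHepSC lay below pHep, with a log2 difference of -2.04 (adjusted p = 0.00231, limma). Without MEF replicate 1 the differences from MEF were -5.94 and -3.89. With all arrays and the mean of both probe sets the call of iHepSC against pHep was lost (adjusted p = 0.174, limma). The second Igf2 probe set read the same direction at a lower level: 4.98 and 4.78 in iHepSC and 4.84 in pHep, against 5.74, 7.79, 7.73 and 7.80 in MEF. There iHepSC and pHep sat at the dim end of the arrays and did not separate, with a difference of 0.04 (adjusted p = 0.987, limma), and MEF replicate 1 was the low MEF array.

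Igf1, the growth hormone-driven ligand, fell in iHepSC and, on its probe set of highest mean level, was not called in pHep. Its level was 6.37 and 6.43 in iHepSC and 7.93 in pHep, against 8.45, 7.88, 7.86 and 7.90 in MEF. The pHep array lay inside the MEF range, and both iHepSC arrays lay below all others. The difference was -1.62 ± 0.19 (SE; adjusted p = 0.00139, limma) in iHepSC against MEF and -1.52 (adjusted p = 0.0134, limma) in iHepSC against pHep. Without MEF replicate 1 the difference from MEF was -1.48 (adjusted p = 4.33e-06, limma). The call against pHep was lost without either iHepSC array (adjusted p = 0.0665 without P3 and 0.071 without P20, limma), with the mean of all probe sets (adjusted p = 0.0625, limma) and after Gapdh centring (adjusted p = 0.151, limma). For pHep against MEF it was -0.10, with a 95% confidence interval of -0.70 to 0.51 (adjusted p = 0.794, limma), and 0.05 (adjusted p = 0.695, limma) without MEF replicate 1. All 4 Igf1 probe sets were lower in iHepSC than in every MEF array, with log2 differences of -1.62 to -2.89, and 2 of them passed the test with all arrays and 4 without MEF replicate 1, where 9.76% and 23.3% of all probe sets were lower. The -2.89 was on 1419519_at, which both iHepSC arrays read below the 25th percentile of their own probe sets, so it is a lower bound in size. In pHep no Igf1 probe set was called with all arrays. Without MEF replicate 1, 1434413_at and 1437401_at were called higher in pHep than in MEF, by 0.86 and 0.48, and the others were not called.

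Promoter sequence is shown for 3 genes whose calls set the groups apart: Igf2, with the largest fall in iHepSC and pHep, and Igfbp1 and Igfbp4, the genes that rose in pHep. The windows are the 250 bases before the transcription start in RefSeq on GRCm38.p6, in lower case and 5′ to 3′ along the gene's strand, with motifs found by a letter search in capitals. All 10 genes matched, with 14 windows, since Igf2 and Igfbp2 have several starts; the one shown for Igf2 is the most downstream of its starts. The build of the array's probes was not given.
Igf2, chr7:142657497-142657746, minus strand: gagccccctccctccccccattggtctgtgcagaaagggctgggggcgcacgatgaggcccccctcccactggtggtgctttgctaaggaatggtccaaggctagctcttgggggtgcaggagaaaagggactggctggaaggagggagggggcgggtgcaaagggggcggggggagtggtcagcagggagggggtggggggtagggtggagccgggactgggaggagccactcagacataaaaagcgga
Igfbp1, chr11:7197537-7197786, plus strand: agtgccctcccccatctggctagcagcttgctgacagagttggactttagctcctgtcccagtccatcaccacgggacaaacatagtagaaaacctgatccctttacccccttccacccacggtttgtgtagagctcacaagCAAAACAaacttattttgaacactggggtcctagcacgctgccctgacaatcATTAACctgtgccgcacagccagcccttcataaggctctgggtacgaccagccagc
Igfbp4, chr11:99040994-99041243, plus strand: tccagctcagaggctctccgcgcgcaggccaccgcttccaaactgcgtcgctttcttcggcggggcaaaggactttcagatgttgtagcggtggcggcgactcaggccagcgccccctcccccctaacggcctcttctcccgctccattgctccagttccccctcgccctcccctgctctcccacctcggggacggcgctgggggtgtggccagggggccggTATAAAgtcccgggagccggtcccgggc

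The search covered 4 motifs on both strands, and the same search was run over all 32851 promoter windows of the same length. In Igfbp1 the capitals mark CAAAACA, the core of the insulin response element, whose first base lies 108 bases before the start, and ATTAAC, the reverse complement of the HNF1 half-site GTTAAT, at 56 bases before it. These letters occur in 5.56% and 6.43% of all windows. In Igfbp4 they mark a TATA box, TATAAA, 28 bases before the start, present in 12.4% of windows and, on the other strand, in the Igfbp6 window. The HNF4 site CAAAGTCCA, found in 0.384% of windows, was in no window of the 10 genes, and the Igf2 window held none of the 4 motifs. A match of letters is a description and was not linked to binding in these cells. The GC content was 66.0% for Igf2, 53.2% for Igfbp1 and 69.2% for Igfbp4, against a median of 52.4% over all windows.

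Igf1r, the receptor tyrosine kinase that signals for both ligands, was lower in both hepatic populations. Its level was 8.96 and 8.60 in iHepSC and 9.57 in pHep, against 11.18, 10.57, 10.53 and 10.75 in MEF, with no overlap. The difference was -1.98 ± 0.22 (SE; adjusted p = 0.000961, limma) in iHepSC and -1.19 ± 0.28 (SE; adjusted p = 0.0233, limma) in pHep. Both calls remained without MEF replicate 1, at -1.84 and -1.05. The pHep call was lost without MEF replicate 4 (-1.20, adjusted p = 0.0577, limma) and after Gapdh centring (-1.16, adjusted p = 0.134, limma), and iHepSC did not pass the test against pHep (-0.79, 95% confidence interval -1.54 to -0.04, adjusted p = 0.148, limma). The 5 Igf1r probe sets did not read alike. Of these, 3 were called lower in iHepSC and 4 in pHep, where 12.3% of all probe sets were lower, whereas the probe set 1428967_at had levels of 8.54 and 7.87 in iHepSC and 9.66 in pHep, against 10.88, 8.37, 8.44 and 8.49 in MEF. On that probe set pHep was above 3 of the 4 MEF arrays, and without MEF replicate 1 it was called higher, by 1.23 (adjusted p = 0.0033, limma).

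Igf2r, which clears IGF2 and sorts lysosomal enzymes, was called or not depending on MEF replicate 1. Its level was 11.27 and 11.22 in iHepSC and 12.16 in pHep, against 12.14, 9.97, 10.05 and 9.97 in MEF. MEF replicate 1 lay with pHep, and the other 3 MEF arrays lay below every other array. With all arrays no difference passed the test, at 0.71 ± 0.66 (SE; adjusted p = 0.476, limma) in iHepSC and 1.63 ± 0.85 (SE; adjusted p = 0.193, limma) in pHep against MEF. Without MEF replicate 1 the differences were 1.25 (adjusted p = 1.15e-05, limma) and 2.16 (adjusted p = 3.67e-06, limma), 2.38-fold and 4.48-fold. The second probe set gave 0.75 and 1.20 with all arrays and 1.39 and 1.84 without that array. Igf2 and Igf2r are imprinted in the mouse, with the paternal copy of Igf2 and the maternal copy of Igf2r expressed. Of 10 measured genes that neighbour them in the 2 imprinted clusters, 1 rose and 1 fell in iHepSC, Slc22a18 (1.47), a transporter-like gene, and Cdkn1c (-2.78), a cell cycle inhibitor. In pHep 2 rose and 2 fell. Without MEF replicate 1, 3 rose and 2 fell in iHepSC and 3 rose and 3 fell in pHep. The shares of all genes were 18.2% higher and 13.4% lower in iHepSC and 14.8% and 15.5% in pHep with all arrays. Without that array they were 31% and 24.8%, and 27% and 31.6%.

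**Figure D2:**
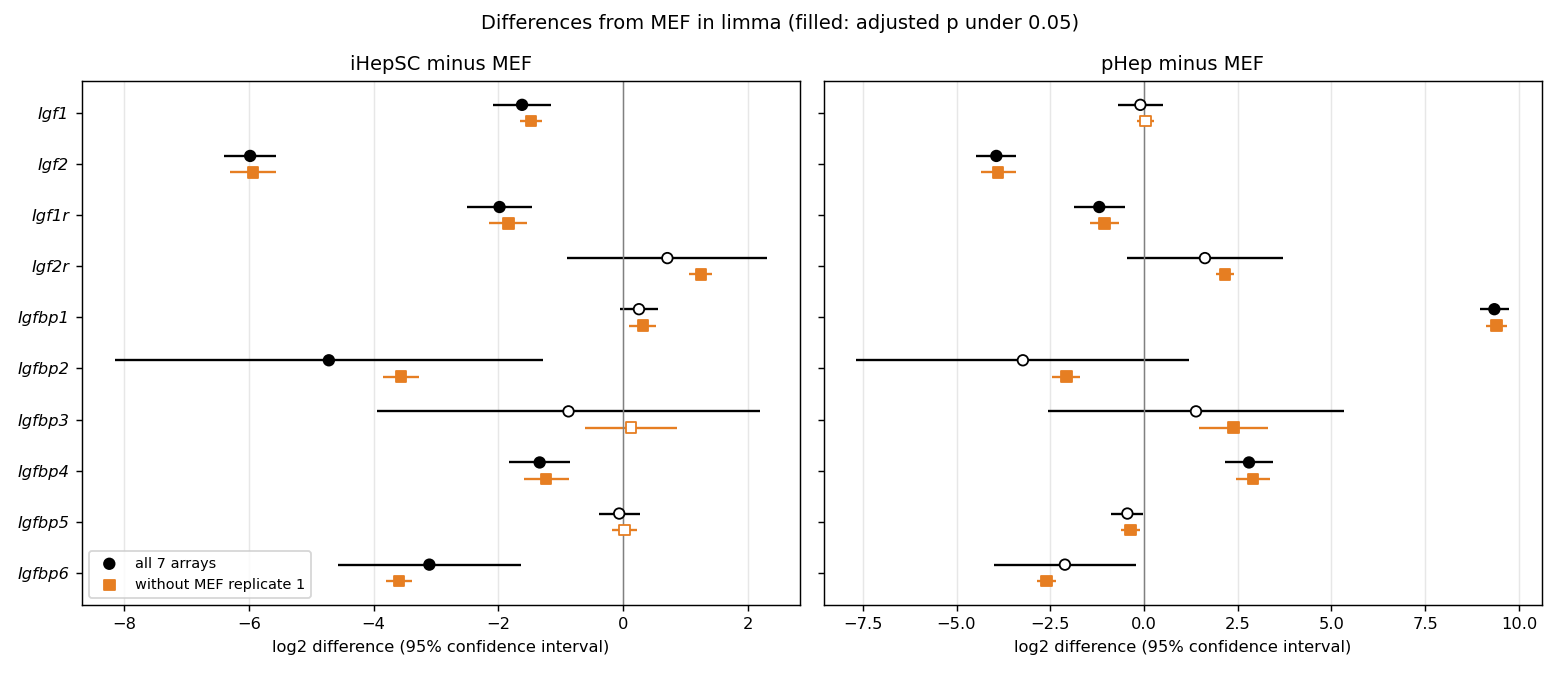
Log2 difference from MEF (horizontal axis) with its 95% confidence interval in limma for the 10 genes, in iHepSC (left) and pHep (right), with all 7 arrays (black circles) and without MEF replicate 1 (orange squares), filled where the adjusted p was under 0.05. The intervals of Igf2r, Igfbp2, Igfbp3 and Igfbp6 narrowed without that array, while Igf2 stayed at -5.98 and -5.94 in iHepSC.

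Igfbp1, which liver secretes in fasting and which insulin represses, had the largest rise of the 10 genes in pHep. Its level was 4.60 and 4.82 in iHepSC and 13.80 in pHep, against 4.64, 4.35, 4.41 and 4.40 in MEF. All iHepSC and MEF arrays read it below the 25th percentile of their own probe sets, which was 4.93 to 4.95. The difference was 9.35 ± 0.16 (SE; adjusted p = 3.82e-06, limma) in pHep against MEF and -9.09 ± 0.18 (SE; adjusted p = 4.52e-06, limma) in iHepSC against pHep, and 9.41 in pHep against MEF without MEF replicate 1. Because the iHepSC and MEF levels lay at the dim end and the values carry no detection calls, the size of these differences is a lower bound. In iHepSC against MEF it was 0.26 (adjusted p = 0.182, limma), and 0.32 (adjusted p = 0.0216, limma) without MEF replicate 1, between levels that all lay at the dim end. The same 2 iHepSC arrays read albumin at 14.39 and 13.74, against 5.35 to 5.89 in MEF.

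Igfbp4, an inhibitory binding protein that pappalysin cleaves, moved in opposite directions in the 2 hepatic populations. Its level was 9.88 and 9.69 in iHepSC and 13.92 in pHep, against 11.43, 11.18, 10.73 and 11.14 in MEF. Every iHepSC array was below and the pHep array above every MEF array. The difference was -1.34 ± 0.20 (SE; adjusted p = 0.00355, limma) in iHepSC and 2.80 ± 0.26 (SE; adjusted p = 0.000637, limma) in pHep against MEF, and iHepSC against pHep was at -4.14 (adjusted p = 0.000246, limma), a 17.6-fold lower level. Without MEF replicate 1 the differences from MEF were -1.23 and 2.90 and both calls remained. All 6 Igfbp4 probe sets passed the test in both comparisons with MEF, at -0.77 to -4.19 in iHepSC and 1.87 to 3.31 in pHep, against backgrounds of 9.76% of all probe sets lower and 15.4% higher. The size of the fall in iHepSC depended on the probe set: 1423756_s_at was at 6.56 and 5.48 in iHepSC and 13.52 in pHep, against 10.07 to 10.38 in MEF. After Gapdh centring the iHepSC difference was -0.85 and the call was lost (adjusted p = 0.0788, limma).

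**Figure D3:**
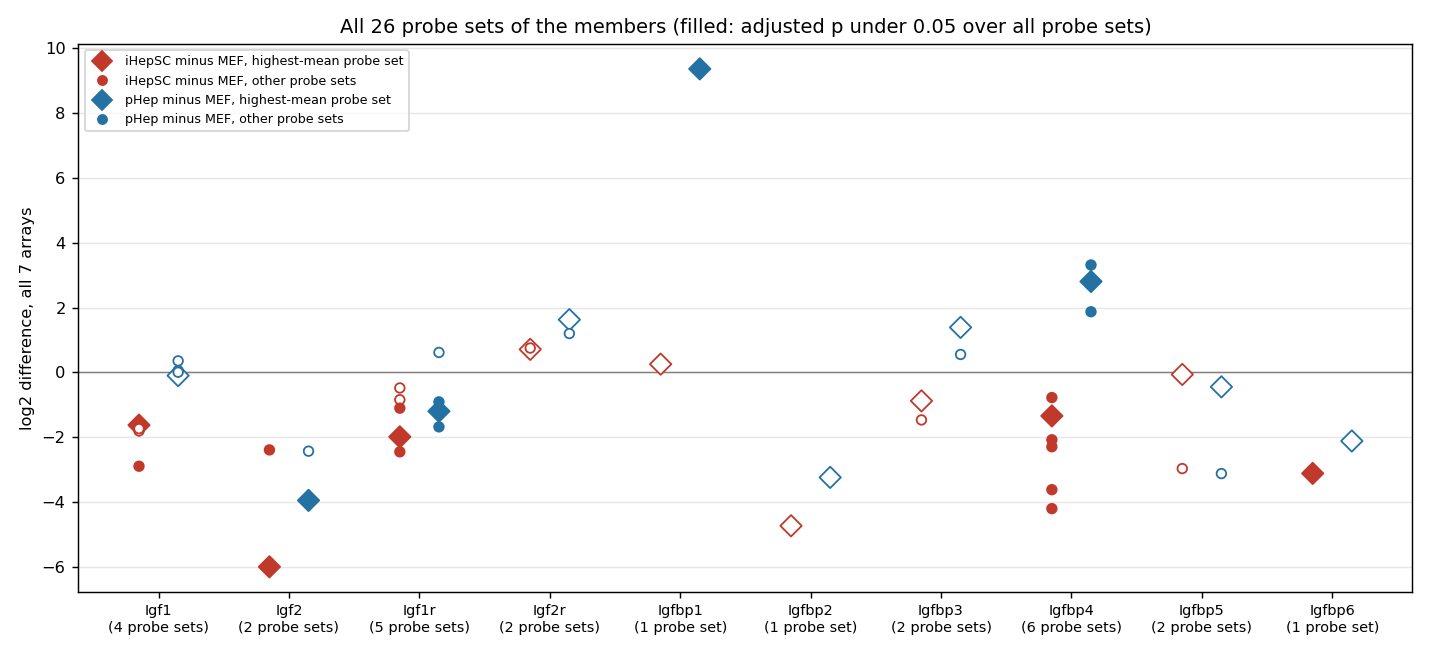
Log2 difference from MEF (vertical axis, all 7 arrays) for each of the 26 probe sets of the 10 genes (horizontal axis), iHepSC in red and pHep in blue, with diamonds for the probe set of highest mean level, circles for the others, and filled symbols where the adjusted p over all probe sets was under 0.05. The 6 Igfbp4 probe sets lay on opposite sides of 0 in iHepSC and pHep, and Igf1r and Igfbp5 had probe sets that differed in size. In pHep, Igf1r 1428967_at lay above 0, at 0.62 and not called, and the other Igf1r probe sets lay below 0.

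Igfbp2, a binding protein of fetal tissues, fell in iHepSC by a margin that the spread of the MEF arrays made uncertain. Its level was 5.50 and 5.24 in iHepSC and 6.86 in pHep, against 13.57, 9.10, 8.82 and 8.88 in MEF. All iHepSC and pHep arrays were below all MEF arrays, and MEF replicate 1 was 24.8-fold above the mean of the other 3. The difference was -4.72 ± 1.41 (SE; adjusted p = 0.0484, limma) in iHepSC and -3.23 ± 1.82 (SE; adjusted p = 0.223, limma) in pHep. The iHepSC call was lost without MEF replicate 2, 3 or 4 (adjusted p = 0.0838, 0.074 and 0.0751, limma) or without either iHepSC array (adjusted p = 0.216 and 0.204, limma), and in the fit over all probe sets (adjusted p = 0.0632, limma). Both differences passed without MEF replicate 1, at -3.56 (adjusted p = 7.25e-07, limma) and -2.07 (adjusted p = 3.69e-05, limma).

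Igfbp3, the main carrier of IGFs in blood, gave no call with all arrays. Its level was 8.75 at P20 and 9.93 at P3 in iHepSC and 11.60 in pHep, against 13.23, 9.32, 9.12 and 9.18 in MEF. The iHepSC arrays lay on either side of MEF replicates 2 to 4, and pHep lay between those and MEF replicate 1. The difference was -0.87 (95% confidence interval -3.94 to 2.19, adjusted p = 0.655, limma) in iHepSC and 1.39 (95% confidence interval -2.57 to 5.35, adjusted p = 0.547, limma) in pHep. Leaving out MEF replicate 1 gave 0.13 (adjusted p = 0.752, limma) in iHepSC, a change of sign, and 2.39 (adjusted p = 0.00163, limma) in pHep. These values are of the Igfbp3 probe set of highest mean level. The other, 1458268_s_at, read 7.86 at P20 and 8.79 at P3, against 8.75 to 9.16 in MEF replicates 2 to 4. Its iHepSC difference was -1.46 with all arrays and -0.64 without MEF replicate 1, uncalled in both and with no change of sign. Igfbp3 and Igfbp1 are neighbouring genes on chromosome 11, and the pHep array had the highest Igfbp1 level and the second highest Igfbp3 level of the 7 arrays.

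Igfbp6, a binding protein that prefers IGF2, fell in iHepSC. Its level was 6.46 and 6.48 in iHepSC and 7.47 in pHep, against 8.11, 10.14, 10.08 and 9.96 in MEF. Here MEF replicate 1 was the low MEF array, yet still above iHepSC and pHep. The difference was -3.11 ± 0.60 (SE; adjusted p = 0.0101, limma) in iHepSC and -2.11 ± 0.78 (SE; adjusted p = 0.0888, limma) in pHep. Without MEF replicate 1 it was -3.60 (adjusted p = 1.34e-07, limma) and -2.60 (adjusted p = 2.6e-06, limma), and the iHepSC call was lost without either iHepSC array (adjusted p = 0.0768 without P3 and 0.0826 without P20, limma).

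Igfbp5, a binding protein held in the extracellular matrix, differed between its 2 probe sets. The probe set of higher mean level read 8.24 and 8.30 in iHepSC and 7.89 in pHep, against 8.58, 8.30, 8.16 and 8.28 in MEF, so that iHepSC lay within the MEF range. Its differences were -0.06 (95% confidence interval -0.39 to 0.27, adjusted p = 0.778, limma) in iHepSC, which became 0.43 after Gapdh centring and 0.022 without MEF replicate 1, and -0.44 (95% confidence interval -0.87 to -0.01, adjusted p = 0.108, limma) in pHep. The other probe set, 1452114_s_at, read 4.90 and 5.07 in iHepSC and 4.83 in pHep, against 11.30, 6.92, 6.87 and 6.69 in MEF. The P20 and pHep arrays read it below the 25th percentile of their own probe sets, and P3 read it near that, so its differences from MEF are lower bounds in size. Both hepatic populations were below all MEF arrays on that probe set, with differences of -2.96 (adjusted p = 0.187, limma) and -3.11 (adjusted p = 0.236, limma) with all arrays and of -1.84 (adjusted p = 7.16e-06, limma) and -1.99 (adjusted p = 1.74e-05, limma) without MEF replicate 1. Which of these probe sets stands for the Igfbp5 transcript of these cells was not tested.

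Set directly against pHep, iHepSC had lower levels of 4 genes and a higher level of none in limma, and at an unadjusted p under 0.05 of 5 and 0. The 4 were Igf1, Igf2, Igfbp1 and Igfbp4, against 7.89% of all genes lower and 9.26% higher. The median log2 difference was -1.51 over the 10 genes and 0.15 over all genes, and Gapdh centring moved the share of higher genes among those called to 72.7%, against 54% as deposited. All of these differences rest on 1 pHep array, whose spread was borrowed from the other groups. These differences do not involve the MEF levels, but without MEF replicate 1 the pooled spread was smaller, and 9 genes were called lower and Igfbp5 higher (0.38, adjusted p = 0.031, limma), against 17.3% and 25.4% of all genes. In bulk samples, fewer cells of a type and less RNA per cell cannot be told apart. Markers of another liver cell type were also higher in pHep: 9 of 12 genes that mark Kupffer cells and macrophages rose against MEF (10 rose and 1 fell without MEF replicate 1), with a mean log2 level over the 12 of 9.50 in pHep, against 6.60 to 7.64 in MEF, while the mean was 5.85 and 5.88 in iHepSC. Of all genes, 14.8% rose in pHep against MEF with all arrays and 27% without MEF replicate 1. Vsig4, a defining Kupffer cell marker, was at 11.57 in pHep, and Clec4f, another, was at 6.08, against 6.46 to 6.75 in MEF. The part of such cells in the pHep levels of the IGF system was not tested.

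The deviation of MEF replicate 1 from the other MEF arrays was large for several of the 10 genes. Igfbp2 was 4.63 and Igfbp3 4.02 above the mean of MEF replicates 2 to 4 on the log2 scale, rank 3 and rank 7 from the top of 18193 genes. Igf2r was 2.15 above it, at rank 150, and Igfbp6 lay below it at -1.96, with 1.07% of genes further down. In all, 3 of the 10 genes were more than 2 above, where 1.09% of all genes were. These values are of the probe sets of highest mean level, where Igf2 and Igfbp1 differed by 0.19 and 0.25 on that array. Igfbp1 was at the dim end on every MEF array. Some other probe sets deviated more: Igf2 1415931_at at -2.03, Igfbp5 1452114_s_at at 4.47, Igf1r 1428967_at at 2.45 and Igf1 1434413_at at 2.01.

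**Figure D4:**
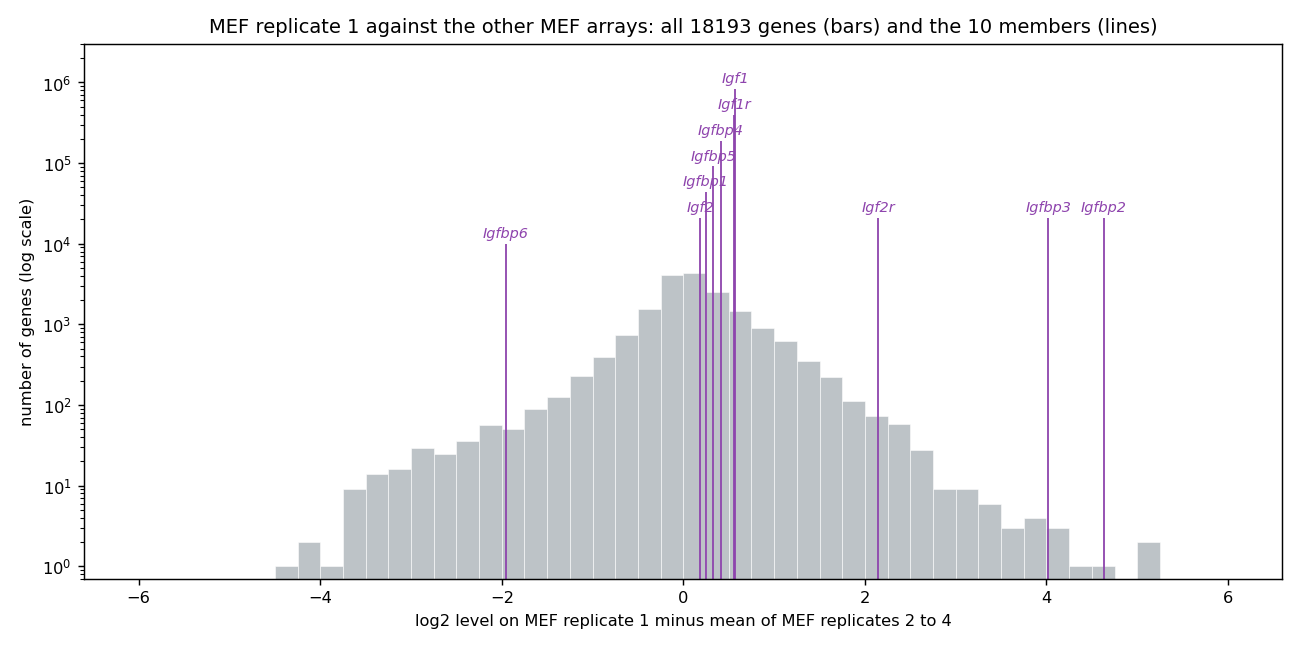
Log2 level on MEF replicate 1 minus the mean of MEF replicates 2 to 4 (horizontal axis) for all 18193 genes (grey bars, number of genes on a log scale) and for the 10 IGF system genes (purple lines, whose height carries no value). Igfbp2 and Igfbp3 stood at 4.63 and 4.02, near the upper end of all genes, and Igfbp6 at -1.96 near the lower end.

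The 2 iHepSC passages were compared with 1 array each and therefore with no test. The P20 minus P3 difference ran from -1.18 for Igfbp3 to 0.54 for Igf2, and these 2 of 10 genes were the ones beyond 0.5 in either direction, against 4.4% of all genes. The median absolute difference was 0.21 over the 10 genes and 0.12 over all genes. For the other genes that fell in iHepSC, the P20 minus P3 difference was -0.06 for Igf1, 0.36 for Igf1r, 0.26 for Igfbp2, 0.20 for Igfbp4 and -0.02 for Igfbp6.

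The genes whose pattern over the 7 arrays was most like that of 3 members were sought by the root-mean-square difference of gene-centred log2 levels. For Igf2 these were Postn, a matrix protein of fibroblasts (0.17), Cavin3, a caveola protein (0.29), and Adamts5, an aggrecan-cleaving protease (0.30). Postn read 5.50 and 5.04 in iHepSC and 7.03 in pHep, against 11.28 to 11.46 in MEF. For Igfbp1 they were the plasma protein genes Fgg (0.28), Serpina1c (0.29) and Vtn (0.29), which encode fibrinogen gamma, an alpha-1-antitrypsin and vitronectin. Fgg read 5.66 and 5.28 in iHepSC and 14.64 in pHep, against 4.77 to 4.94 in MEF. No member rose in iHepSC with all arrays; for Igf2r, which had the largest positive difference, they were Epm2aip1 (0.14), Ube2r2 (0.14) and Hs3st3b1 (0.17). Hs3st3b1, a heparan sulfate sulfotransferase, was likewise high on MEF replicate 1, at 9.12 against 6.69 to 7.12 on the other MEF arrays.

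The other genes of the pathway were read from lists of carriers, signalling proteins and regulators. Their counts stand against the shares of all genes, which with all arrays were 18.2% higher and 13.4% lower in iHepSC and 14.8% and 15.5% in pHep, and without MEF replicate 1 were 31% and 24.8% in iHepSC and 27% and 31.6% in pHep. Among the 14 carrier partners and proteases, 3 rose and 6 fell in iHepSC and 4 rose and 5 fell in pHep against MEF, with median log2 differences of -0.12 and -0.51 (over all genes 0.01 and -0.13). Leaving out MEF replicate 1 gave 4 higher and 6 lower in iHepSC and 5 higher and 8 lower in pHep. The pappalysin gene Pappa, which cleaves IGFBP4, fell in both, with differences of -4.33 in iHepSC (adjusted p = 3.83e-06, limma) and -4.61 in pHep (adjusted p = 1.41e-05, limma), and Adamts1, a metalloprotease, fell in iHepSC (-5.42). Adam12, whose human protein cleaves IGFBP3 and IGFBP5, fell in pHep (-4.80). The proprotein convertase genes Pcsk6 and Furin rose in iHepSC, by 1.49 and 0.63. Igfals, the acid-labile subunit that liver adds to the circulating IGF complex, rose in pHep by 1.59 (adjusted p = 0.00105, limma), as did Plg, the plasminogen gene, by 8.26. In iHepSC the differences of these 2 genes were -0.08 (adjusted p = 0.684, limma) and 0.16 (adjusted p = 0.46, limma).

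The IGF2 mRNA-binding protein Igf2bp3 fell in iHepSC (-1.91) and in pHep (-1.36), and Igf2bp1 fell in pHep (-0.86), so that 1 of 2 measured genes fell in iHepSC and 2 of 2 in pHep; without MEF replicate 1 both fell in both. Igf2bp2 was not analysed here. Of 8 IGFBP-related genes none rose in limma (0 at an unadjusted p under 0.05 in either population), 4 fell in iHepSC and 2 fell in pHep, with median differences of -2.21 and -1.06. This changed without MEF replicate 1, where 1 was higher and 5 were lower in iHepSC and 1 was higher and 4 were lower in pHep. The higher gene was Igfbp7 in both, at 1.18 (adjusted p = 1.53e-05, limma) in iHepSC and 1.24 (adjusted p = 4.66e-05, limma) in pHep. The matricellular genes Ccn4 and Ccn3 fell in both, with differences of -5.40 and -5.24 in iHepSC and -2.80 and -5.42 in pHep. All iHepSC and pHep arrays read Ccn3 below the 25th percentile of their own probe sets, so that its differences are lower bounds in size. In the growth hormone arm, 3 of 8 measured genes rose and 1 fell in iHepSC, and 4 rose and 1 fell in pHep, with median differences of 0.74 and 0.74. The counts became 5 higher and 2 lower in each without MEF replicate 1. Ghr, the growth hormone receptor itself, fell in iHepSC (-2.06, adjusted p = 0.00141, limma) and had a difference of -0.76 in pHep (adjusted p = 0.12, limma), which was called without MEF replicate 1 (-0.95, adjusted p = 0.000516, limma). The feedback inhibitor Socs3 rose in iHepSC by 1.54 and in pHep by 2.10, the kinase gene Jak2 rose in iHepSC by 1.18, the feedback inhibitor Socs2 rose in pHep by 2.94 and another, Socs1, fell there (-1.22).

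Downstream of the receptors, 4 of 26 measured genes of insulin and IGF receptor signalling rose and 6 fell in iHepSC, and 7 rose and 5 fell in pHep, with median differences of 0.29 and 0.47. With MEF replicate 1 left out the counts were 15 higher and 7 lower in iHepSC and 16 higher and 6 lower in pHep, where of all genes 31% were higher and 24.8% lower in iHepSC and 27% and 31.6% in pHep. Grb10, an imprinted adaptor that restrains insulin and IGF1 receptor signalling, fell in both, with differences of -8.28 in iHepSC (adjusted p = 2.62e-06, limma) and -3.02 in pHep (adjusted p = 0.000631, limma). The substrate gene Irs1 fell too, with differences of -2.75 in iHepSC and -2.84 in pHep. The adaptor Gab1 rose in iHepSC by 2.33, and Pik3r1, a regulatory subunit of PI3 kinase, rose by 2.17 in iHepSC and 2.73 in pHep. Insr, the insulin receptor, rose in pHep by 3.15 (adjusted p = 0.00333, limma) and in iHepSC by 1.57 (adjusted p = 0.0153, limma), so that Insr and Igf1r were called in opposite directions in both populations.

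**Figure D5:**
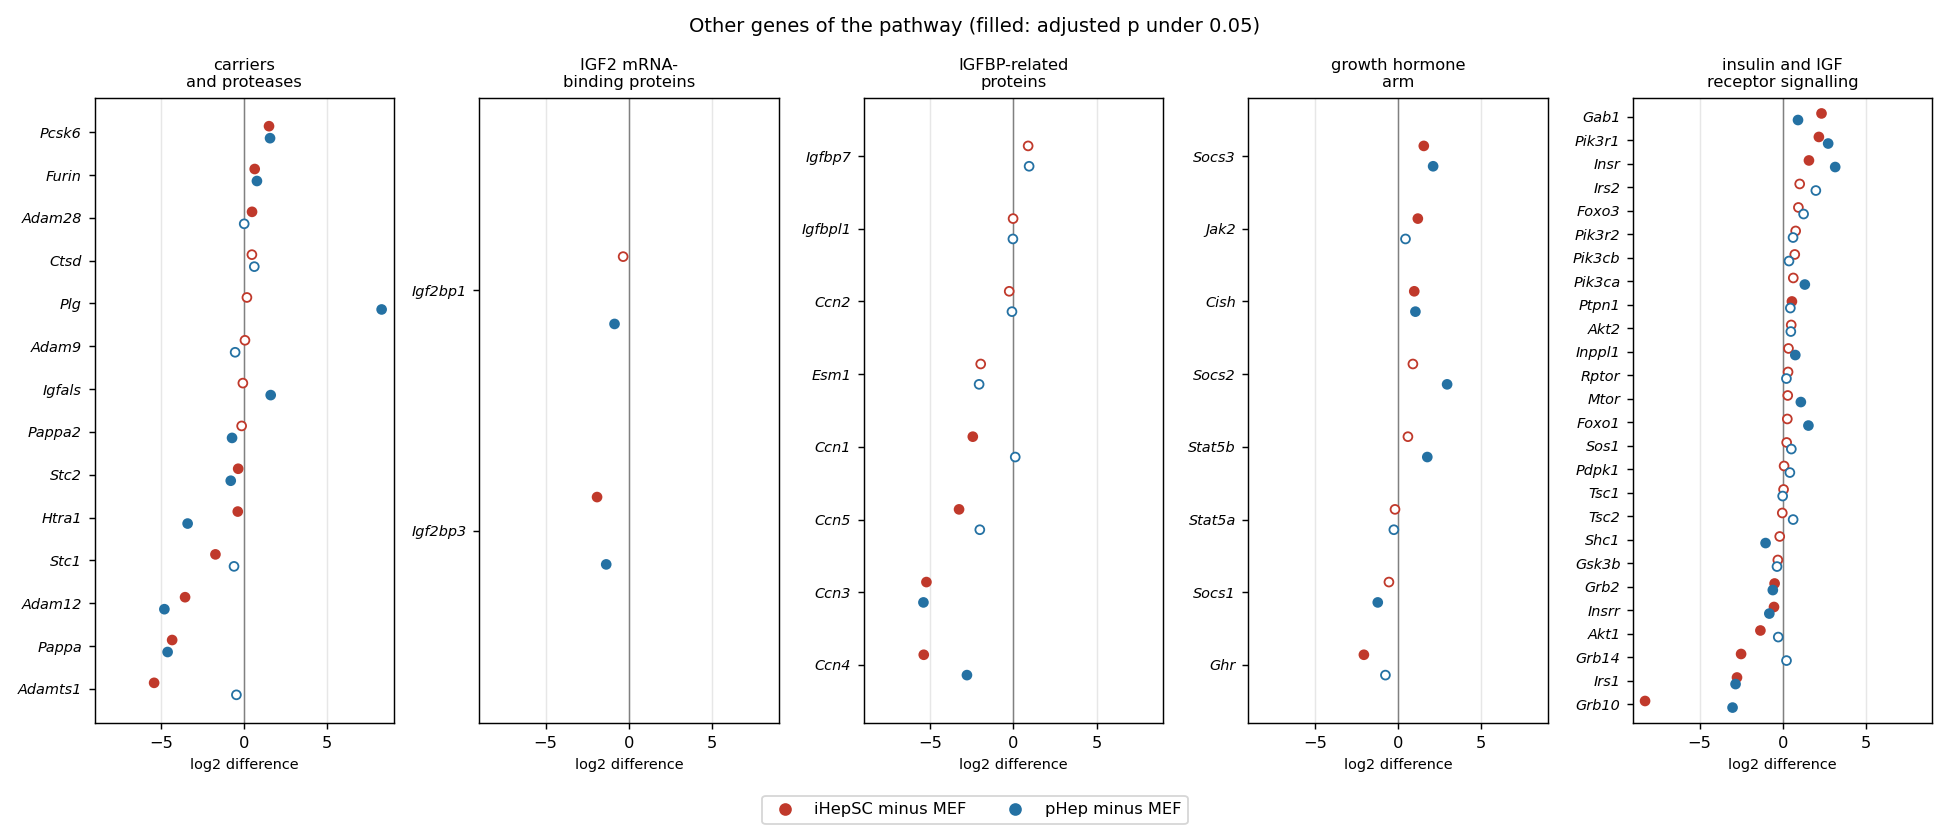
Log2 difference from MEF (horizontal axis, all 7 arrays) for the other genes of the pathway in 5 lists, iHepSC in red and pHep in blue, filled where the adjusted p was under 0.05. Grb10 in iHepSC stood at -8.28 and Plg in pHep at 8.26, and Pappa, Ccn3 and Irs1 were lower in both.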

How the data were processed

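The deposited values are log2 expression levels of 45101 probe sets that the authors made with RMA, which subtracts background, quantile-normalises the arrays and summarises the probes of each set; the build of the probes is not given in the sources used here. Depth does not apply to arrays, and their number limits the precision. Genes were named from the platform annotation: 34945 probe sets had 1 symbol, 932 had several, 9160 had none and 64 were controls. Each gene was read from its probe set of highest mean level. A linear model with moderated variance (limma 3.58.1, R 4.3.3) was fitted over all 7 arrays in 3 groups, with Benjamini-Hochberg adjustment over 18193 genes, and again over 45037 probe sets; tables and figures were made in Python 3.11.15. The spread had 4 residual degrees of freedom. On simulated data of iHepSC against MEF over 18193 genes, 47.8% of the genes changed by a log2 difference of 1 and 92.5% of those changed by 2 were recovered, and 7.65% of calls were false. For pHep against MEF over 18193 genes the shares were 26.9%, 71.6% and 5.22%. The simulated arrays scattered independently, with 200 changed genes and no MEF array that stood apart. Unlike them, the deposited data have MEF replicate 1 and many more called genes, so these shares need not hold for them.

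The members and gene lists (carriers and proteases, IGF2 mRNA-binding proteins, IGFBP-related proteins, growth hormone arm, receptor signalling, imprinted neighbours, marker lists of hepatocytes, fibroblasts, Kupffer, stellate, endothelial and bile duct cells, cell division genes and cell cycle inhibitors) were chosen with earlier results of these data known. The text names all 10 members and, per pathway list, up to 2 called genes with the largest rise and 2 with the largest fall; other named genes were chosen after their values were seen. Nearest patterns were sought for members with a range of at least 2. Genes on the lists without a probe set of 1 symbol were not analysed here. Alternatives were the mean of all probe sets, no _x_at or _s_at probe sets, a minimum level of 6, renewed quantile normalisation, centring on Gapdh control probe sets, limma with trend or robust fitting, each replicate left out, MEF replicates 2 to 4 averaged, the replicate number as a block, and the unpaired test named in the methods.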

Additional observations from a re-analysis of the deposited data

Results flagged for a closer look

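For each of the 26 probe sets the 4 MEF arrays were searched for an array whose gap to its nearest neighbour took up an unusually large share of the whole MEF range. This marked 14 probe sets of 8 genes, and the probe sets of a gene are not independent. Chance marks about 1 in 20 groups of 4 arrays that scatter alike, which these MEF arrays do not. MEF replicate 1 stood apart over the whole array, and the share marked among all probe sets was not computed. The count therefore cannot be read as particular to these genes. In 13 of them the array was MEF replicate 1, 11 times the highest and 2 times the lowest. MEF replicate 1 was the highest for all 4 Igf1 probe sets (gap share 0.921, 0.926, 0.893 and 0.941), for Igf1r 1428967_at (0.951), for both Igf2r probe sets (0.967 and 0.962), for Igfbp2 (0.94), for both Igfbp3 probe sets (0.95 and 0.881) and for Igfbp5 1452114_s_at (0.951). It was the lowest for Igf2 1415931_at (0.966) and for Igfbp6 (0.912). MEF replicate 2 was the lowest for Igf1r 1452108_at (0.838). For 5 genes the marked probe set was the one of highest mean level, which the comparisons read.

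Igfbp4 fell in iHepSC and rose in pHep against the same MEF arrays, and the difference between the 2 effects was tested as iHepSC against pHep, at -4.14 (adjusted p = 0.000246, limma).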

How the results depend on the processing

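The falls of Igf1 and Igf2 in iHepSC and the rise of Igfbp1 and fall of Igf2 in pHep against MEF were called under every alternative run. Over the 10 genes and all alternatives, 18 results lost their call, 2 gained one and 3 changed sign in iHepSC against MEF; 6, 7 and 3 did so in pHep against MEF, and 8, 6 and 0 in iHepSC against pHep. The changes of sign concern differences that did not pass the test. With 1 array left out, Igfbp3 ran from -1.46 to 0.13 and Igfbp5 from -0.12 to 0.022 in iHepSC, and Igf1 from -0.15 to 0.047 in pHep, each positive without MEF replicate 1; Igfbp5 became 0.43 in iHepSC with Gapdh centring, and Igf1 0.083 in pHep with the mean of all probe sets. The cause was not tested. With the mean of probe sets 2 genes were lower in iHepSC than in pHep; with MEF replicates 2 to 4 averaged, and with the unpaired test named in the methods after adjustment, 1 gene was lower in pHep than in MEF.

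Deviations of same-numbered arrays from their group means correlated at -0.222 and -0.207. The 2 values are not independent, because the deviations of the 2 iHepSC arrays mirror each other. In iHepSC the replicate number also marks the passage, so these values cannot decide whether it pairs the samples. With it as a block, Igfbp3 became -0.95 in pHep, 2 genes were lower in iHepSC than in MEF and 2 lower than in pHep, and 1 was higher and 1 lower in pHep than in MEF; over all genes 845 were higher and 682 lower, 189 and 259, and 465 and 315 in the same 3 comparisons.

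Leaving out 1 array gave 0 to 2 higher and 4 to 6 lower members in iHepSC against MEF, 2 to 4 and 1 to 5 in pHep against MEF, and 0 to 1 and 3 to 9 in iHepSC against pHep. Over all genes the ranges were 1833 to 5638 higher and 1299 to 4514 lower, 2037 to 4917 and 1843 to 5743, and 909 to 4628 and 878 to 3144, with the highest counts without MEF replicate 1. The main counts over all genes were 3310 and 2446, 2696 and 2814, and 1685 and 1435. Averaging MEF replicates 2 to 4 gave 1517 and 1184, 1240 and 927, and 693 and 780. Gapdh centring gave 4557 and 1053 (81.2% higher, against 57.5%), 1525 and 1380, and 1641 and 616 (72.7%, against 54%), and the unpaired test after adjustment gave 1292 and 1355 in pHep against MEF. With the block 59.6% of called genes were higher in pHep against MEF, against 48.9%, and 42.2% in iHepSC against pHep. Precision is limited by 1 pHep array, 2 iHepSC arrays of different passage and 4 MEF arrays of which 1 stands apart.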
